A study of Mus musculus with 6 samples.

Results

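Hypoxia-inducible factor 1 (HIF-1) is a transcription factor whose alpha subunit, encoded by Hif1a, is made continuously and destroyed when oxygen is present. Prolyl hydroxylases of the EGLN family mark the subunit, the VHL ubiquitin ligase recognises the mark, and the proteasome degrades it, so the protein is set largely after transcription. At low oxygen the alpha subunit pairs with ARNT and binds short DNA elements near genes for glucose use, blood vessel growth, mitochondrial turnover and its own hydroxylases. HIF-1 has been studied in chronic myeloid leukaemia, where leukaemic stem cells live in poorly oxygenated marrow.

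The genes described here are Hif1a and 9 of its targets outside glycolysis: Vegfa, Bnip3, Bnip3l, Egln1, Egln3, Ankrd37, P4ha1, Kdm3a and Ndrg1. They were listed by function, but with earlier results of these data known. All 10 were found by symbol among the 53819 genes of the table. All 10 also passed the filter on low counts, which kept 15232 genes. RNA sequencing was done on leukaemia cells that carry BCR-ABL and NUP98-HOXA9, a combination that models blast crisis of chronic myeloid leukaemia, and that were sorted from mouse spleen. Both groups carried these fusions: 3 libraries labelled SLC6A6 KO and 3 labelled SLC6A6 WT, called KO and WT below. The labels name neither the allele and how it was made nor the strain, age and number of mice, and the series title uses the word knock-down. Whether the 3 libraries of a group stem from different mice is not stated, so a p-value reflects the spread among these samples alone, which could be technical.

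Totals lay between 42829294 and 49537098 counts per library. Levels are given as CPM, the counts of a gene scaled to a common library total after TMM normalisation. Slc6a6, the taurine transporter gene named in the labels, was lowest in KO1 (125 CPM), followed by KO2 (132) and KO3 (133), and WT libraries held 145 to 151 CPM. The adjusted p of this difference was 0.196 (edgeR), and the Slc6a6 level does not settle the labels. Y-linked transcripts had 10274 to 11236 counts in each KO library and 0 or 1 in each WT library. The X-linked gene Xist was at 0.305 to 4.41 CPM in KO and 160 to 197 CPM in WT. Genotype and the sex of the cells therefore cannot be told apart. The 10 genes lie on autosomes, but any effect of sex on them cannot be told apart from genotype either. The blood cell gene Ptprc was at 50.1 to 148 CPM and Hoxa9, a gene of blood progenitors, at 97.3 to 140 CPM. Of the myeloid genes on the same list of blood cell identity, Spi1 was at 38.9 to 97.4 CPM, while Itgam and Cebpa stayed below 2 CPM in every library. Kit, a receptor of progenitors and mast cells, was at 44.6 to 75.9 CPM in KO and 9.90 to 25.6 CPM in WT (edgeR adjusted p = 0.0450). This call was lost in each of the 6 fits without 1 library (adjusted p 0.0520 to 0.156). Of the 8 genes on the list, 1 (Kit) was above WT in all KO libraries, as were 13.6% of all genes. Cd34 and Hoxa9 were below WT in all KO libraries (14.4% of all genes), and neither passed the edgeR test. Per kilobase of exon, Cd34 was at 0.120 to 0.332 CPM in KO and 0.431 to 2.32 in WT. Hoxa9 was at 17.4 to 19.4 CPM per kilobase in KO and 23.1 to 25.1 in WT. Whether its reads came from the mouse gene or from the NUP98-HOXA9 fusion was not tested.

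None of the 10 genes passed the test across all genes (edgeR quasi-likelihood, Benjamini-Hochberg adjusted p below 0.05), against 3.56% of all tested genes. Bnip3 and P4ha1 had lower fitted levels in KO, by 41.9% and 44.9%, and Bnip3l a 1.58-fold higher one, each with an adjusted p between 0.0634 and 0.0974. At an unadjusted p below 0.05, these 3 of the 10 were past the threshold, against 22.0% of all genes. DESeq2's Wald test called the same 3, against 13.1% of all genes, and limma-voom called 0 of the 10, against 2.96%. The KO and WT libraries did not overlap for 5 of the 10 genes, against 28.0% of all genes. Bnip3, P4ha1 and Ankrd37 were below WT in all KO libraries (14.4% of all genes), and Bnip3l and Kdm3a above it (13.6%). The median log2 fold change, KO over WT, was −0.35 over the 10 genes and 0.01 over all tested genes.

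**Figure D1:**
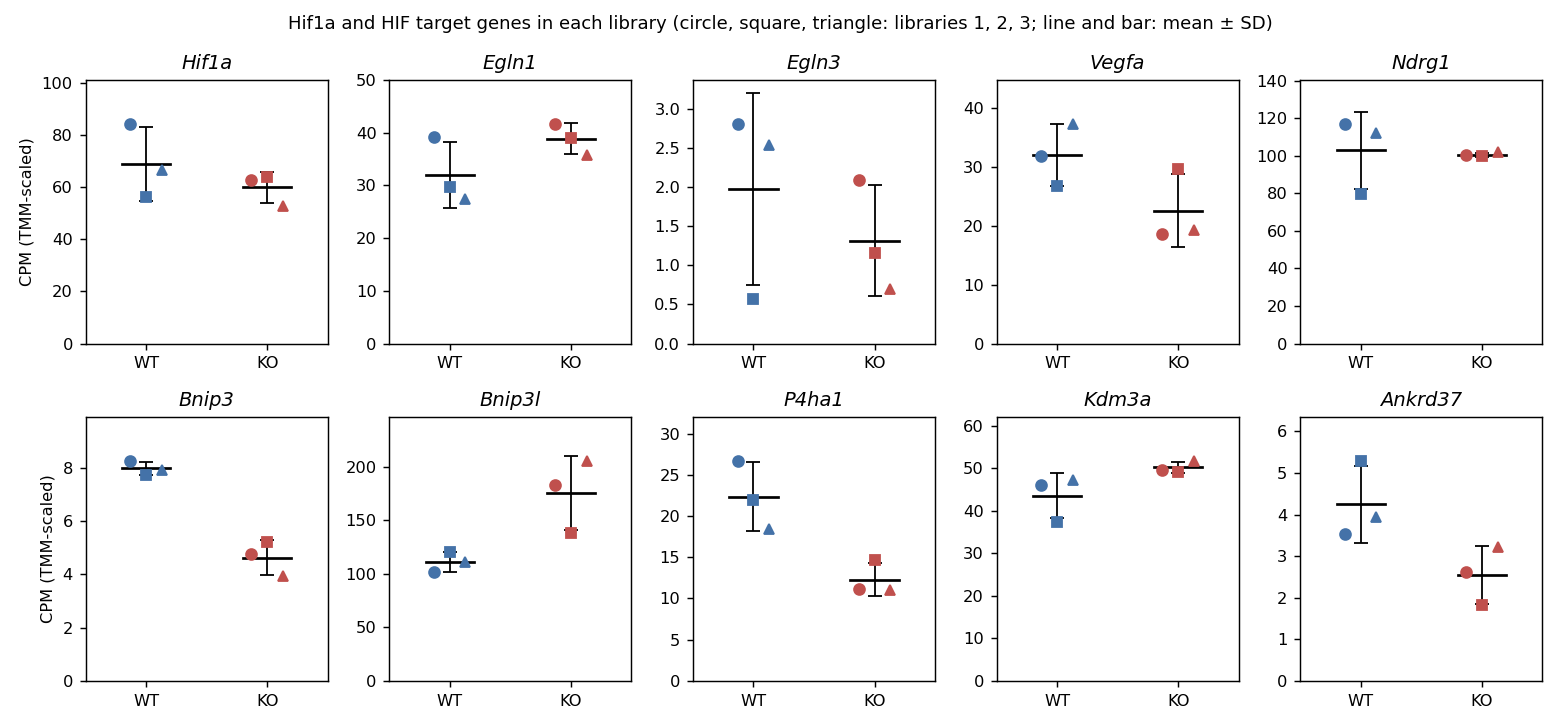
CPM on TMM-scaled library sizes (y axis, from 0) for Hif1a and its 9 targets in the WT and KO libraries (x axis); symbols mark libraries 1, 2 and 3, the line is the mean and the bar the SD over 3 libraries. The groups are apart for Bnip3, Bnip3l, P4ha1, Kdm3a and Ankrd37 and overlap for the other 5 genes.

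The 3 genes that were lower in each KO library than in any WT library had promoter sequences in the RefSeq table (build GRCm38.p6), and these are shown because HIF-1 binds a short core element. The core was searched as ACGTG and GCGTG on both strands, in windows from 250 bases before to 50 after each annotated start. The stretches below run 5′ to 3′ on the strand of the gene and stop where the first annotated exon begins. Capitals mark every match, and matches can overlap, as both strands of CACGTG do.
Bnip3, chr7:138909520-138909756, minus strand: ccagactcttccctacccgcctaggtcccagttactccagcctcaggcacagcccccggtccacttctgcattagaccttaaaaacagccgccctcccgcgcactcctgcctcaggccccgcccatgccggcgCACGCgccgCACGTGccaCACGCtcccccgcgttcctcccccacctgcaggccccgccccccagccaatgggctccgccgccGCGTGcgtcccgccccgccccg
Ankrd37, chr8:45999868-46000100, minus strand: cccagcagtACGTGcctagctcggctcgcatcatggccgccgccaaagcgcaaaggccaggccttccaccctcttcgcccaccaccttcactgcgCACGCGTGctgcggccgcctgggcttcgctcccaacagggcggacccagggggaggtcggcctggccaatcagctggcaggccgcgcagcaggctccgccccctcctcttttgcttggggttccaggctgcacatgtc
P4ha1, chr10:59323046-59323295, plus strand: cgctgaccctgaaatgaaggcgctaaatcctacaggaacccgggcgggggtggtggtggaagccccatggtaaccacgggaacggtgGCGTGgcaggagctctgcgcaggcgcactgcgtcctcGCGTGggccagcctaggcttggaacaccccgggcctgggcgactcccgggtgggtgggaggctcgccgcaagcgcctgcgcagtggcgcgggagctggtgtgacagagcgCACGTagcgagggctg
The Bnip3 stretch holds 5 matches, 2 of them the strands of a single CACGTG, and the P4ha1 stretch holds 3. The Ankrd37 stretch also holds 3, and a further match lies outside it in the window. Of the 10 genes 8 had an entry, with 11 windows in all. A match was present in 8 of the 11 windows (72.7%), against 60.2% of 13572 windows of tested genes and 43.8% of 32851 windows in the table. Each of the 8 genes had a match in at least 1 window, so its presence did not separate higher from lower genes. For Kdm3a, higher in each KO library, 1 of 3 windows held a match. Bnip3l, also higher in each KO library, and Ndrg1 had no entry. The motif is common, and a match describes letters only, not binding.

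Hif1a, the oxygen-regulated subunit itself, was at 62.8, 63.8 and 52.9 CPM in KO1 to KO3. In WT1 to WT3 it was at 84.3, 56.1 and 66.4 CPM. WT1 was the highest library, WT2 lay below both KO1 and KO2, and the groups overlapped. The log2 fold change was −0.20 ± 0.16 (SE, n = 3 against 3; edgeR adjusted p = 0.523), with a 95% interval from −0.59 to 0.18. With the level of erythroid markers as a covariate, its value was 0.11. In the mouse annotation, exons of Hif1a overlap those of Gm49321 on the same strand and Gm15283 on the opposite strand. How reads of these overlaps were counted is unknown.

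The EGLN enzymes hydroxylate HIF alpha subunits in an oxygen-dependent reaction, and Egln1 and Egln3 are also HIF targets, which closes a feedback loop. Egln1, the main enzyme of the family for HIF-1, was at 41.7, 39.1 and 35.8 CPM in KO1 to KO3 and at 39.2, 29.6 and 27.4 CPM in WT1 to WT3. Only WT1 reached into the KO range. Its log2 fold change was 0.28 ± 0.16 (edgeR adjusted p = 0.365; 95% interval −0.10 to 0.65). Egln3, a strongly hypoxia-inducible member, had few reads: 93, 53 and 29 counts in KO and 142, 27 and 115 in WT. WT2 was the lowest of the 6 libraries, and the 95% interval of its log2 fold change, −2.18 to 1.01, allows large differences in either direction. The ratio of Egln3 to Egln1 counts was 0.0502, 0.0295 and 0.0196 in KO and 0.0718, 0.0192 and 0.0927 in WT. It did not differ in an exact two-sided permutation test over samples (p = 0.5, adjusted over 2 ratios 0.5), where the smallest possible p is 0.1.

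Egln2, the family member that is not induced by hypoxia, made up most of the family. Per kilobase of exon, it held 69.6% ± 2.25 (SD, n = 3) of EGLN transcripts in KO and 69.7% ± 7.22 in WT. Egln1 held 29.1% ± 1.74 and 27.9% ± 6.21, and Egln3 1.32% ± 0.657 and 2.36% ± 1.51. Each share overlapped between the groups.

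**Figure D2:**
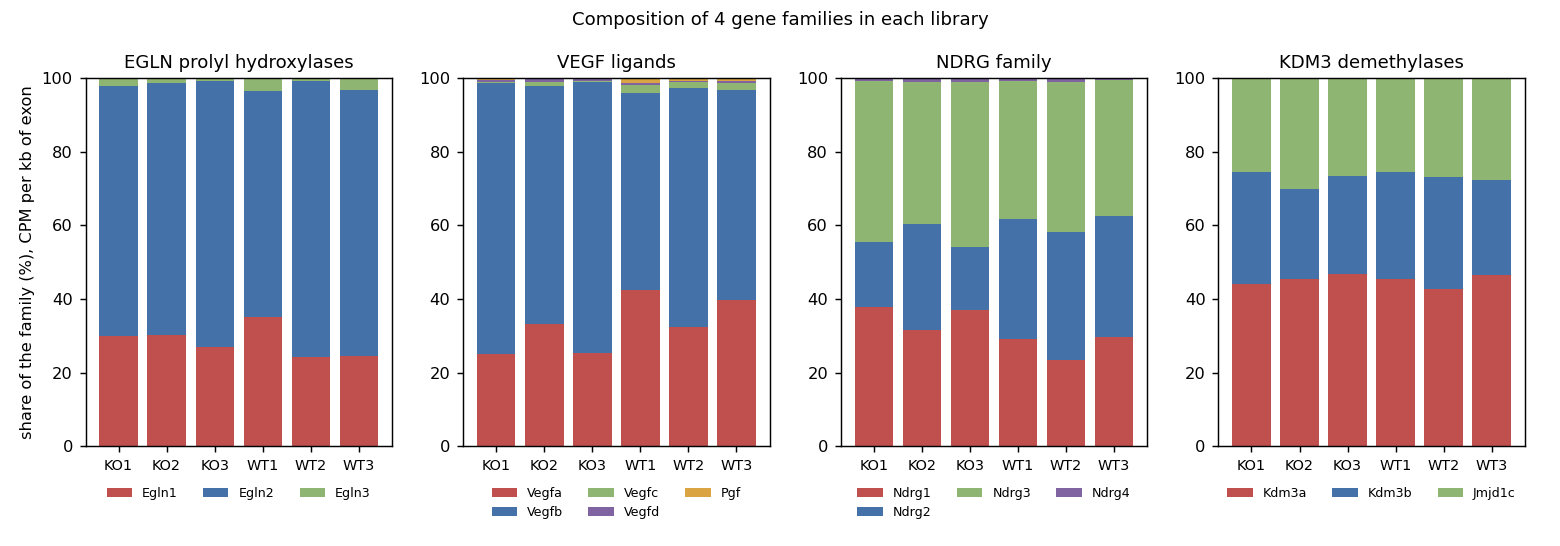
Share (%) of each family member, from CPM per kilobase of exon (y axis, 0 to 100), in each of the 6 libraries (x axis) for the EGLN, VEGF ligand, NDRG and KDM3 families. Egln2 is the largest EGLN segment and Vegfb the largest VEGF segment in all 6 libraries, and the Ndrg2 segment is smaller in the KO libraries.

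Vegfa encodes the main growth factor for blood vessels and a classical HIF target. It was at 18.6, 29.8 and 19.4 CPM in KO1 to KO3 and at 32.0, 26.8 and 37.4 CPM in WT1 to WT3. KO2 stood above WT2, and the other KO libraries were below all WT libraries. The log2 fold change was −0.50 ± 0.22 (edgeR adjusted p = 0.243; 95% interval −1.03 to 0.02). It was −0.76 without KO2 (adjusted p = 0.0701) and −0.16 with the erythroid covariate (adjusted p = 0.777).

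Of 9 other genes of the VEGF system, 5 passed the filter on low counts and 0 passed the edgeR test, 3 with a log2 fold change below 0 and 2 above it. Vegfb, a related ligand, stood at 21.2 ± 0.547 CPM in KO and 18.5 ± 2.92 in WT (adjusted p = 0.524). Per length it made up 70.8% ± 5.17 of VEGF ligand transcripts in KO and 58.6% ± 5.93 in WT, while Vegfa held 27.8% ± 4.71 and 38.2% ± 5.28. Nrp1, a co-receptor, stood at 0.543 ± 0.434 CPM in KO and 2.34 ± 0.610 in WT (adjusted p = 0.210). The receptor genes were close to 0: no library had more than 12 counts of Flt1, 7 of Kdr or 3 of Flt4.

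BNIP3 and BNIP3L, the latter also called NIX, sit in the outer mitochondrial membrane and tie mitochondria to autophagosomes for removal. Bnip3, a strongly HIF-dependent gene, was at 4.77, 5.20 and 3.93 CPM in KO1 to KO3. In WT1 to WT3 it was at 8.26, 7.75 and 7.94 CPM. The highest KO value lay well below the lowest WT value, and the WT libraries were close to each other. On the log2 scale the fold change was −0.78 ± 0.22 (edgeR adjusted p = 0.0974; 95% interval −1.30 to −0.27). Behind these values stand 162 to 239 counts in KO and 359 to 417 in WT. Without 1 library the log2 fold change stayed between −0.88 and −0.69, and it passed the threshold in 0 of these 6 fits.

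Bnip3l, which clears mitochondria from maturing red cells, was the most abundant of the 10 genes and went the other way. It was at 183, 138 and 205 CPM in KO1 to KO3 and at 101, 120 and 111 CPM in WT1 to WT3. KO2 was the lowest KO library and still lay above WT2, the highest WT library. Its log2 fold change was 0.66 ± 0.15 (edgeR adjusted p = 0.0634; 95% interval 0.30 to 1.02). Without KO2 it was 0.80 with an adjusted p of 0.0301, and in the other 5 fits without 1 library it missed the threshold.

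Erythroid markers moved with Bnip3l. All 19 tested genes of that list had a log2 fold change above 0 (median 1.55) and 0 passed the edgeR test. Their summed level was 8757 to 29878 CPM in KO and 2847 to 11841 CPM in WT, and none of the 19 was at 0. In each group the libraries had the same order by Bnip3l as by erythroid markers: KO2, KO1, KO3 and WT1, WT3, WT2. KO2 had less erythroid signal than WT2 (8757 against 11841 CPM) but more Bnip3l. With the erythroid covariate, which left 0 of the 10 genes and 1.28% of all genes past the test, the fitted Bnip3l ratio was 1.25-fold (adjusted p = 0.232), and Bnip3 was 35.3% lower (adjusted p = 0.333). In such bulk samples a change in the number of cells of a type and a change in RNA per cell cannot be told apart.

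The ratio of Bnip3 to Bnip3l counts, in which library scaling cancels, was 0.0261, 0.0377 and 0.0191 in KO1 to KO3. It was 0.0815, 0.0644 and 0.0716 in WT1 to WT3. The groups did not overlap, and the mean log2 ratio differed by −1.44, a 2.71-fold lower ratio in KO. The exact two-sided permutation test gave p = 0.1, the smallest that 3 against 3 libraries allow (adjusted over 2 ratios 0.2). Within each group the ratio fell as the erythroid level rose, in the order KO2, KO1, KO3 and WT1, WT3, WT2. KO2, with less erythroid signal than WT2, again lay outside the WT range. The part of erythroid cells in the ratio was not tested.

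**Figure D3:**
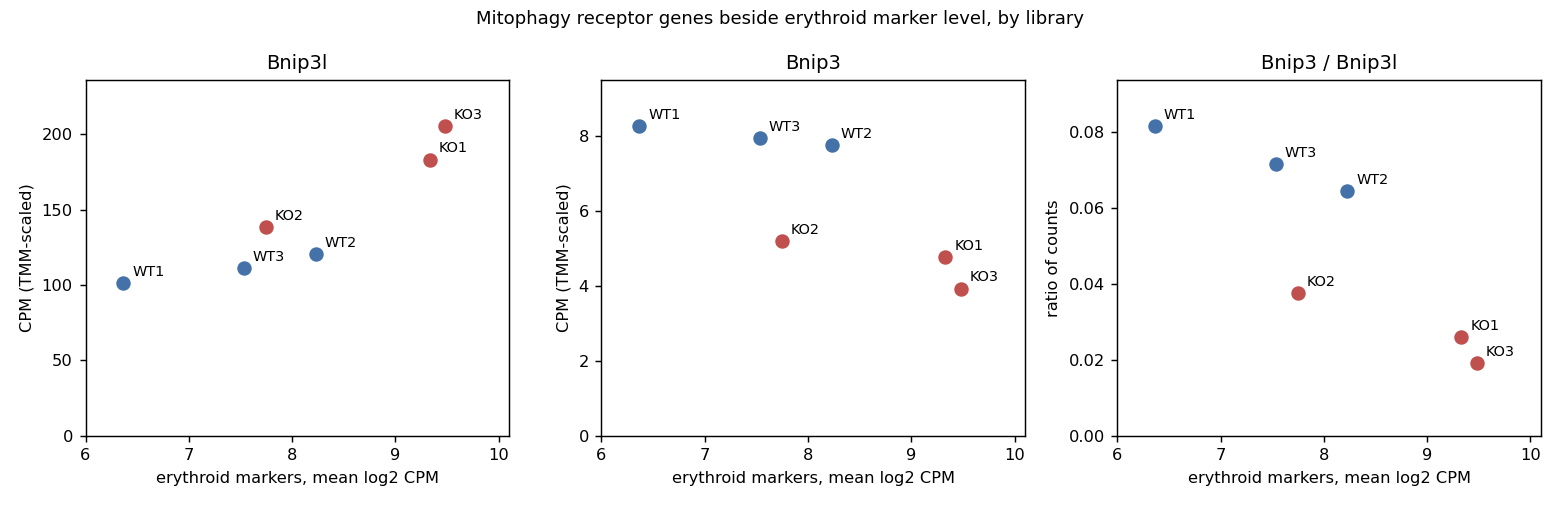
CPM of Bnip3l and of Bnip3 and the ratio of their counts (y axes, from 0) against the mean log2 CPM of 19 erythroid markers (x axis), 1 point per library, KO in red and WT in blue. Bnip3l rises with the erythroid level within each group; KO2 lies to the left of WT2, with Bnip3l at 138 against 120 CPM and Bnip3 at 5.20 against 7.75 CPM.

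Other mitophagy genes did not pass the test: of 14 tested partners of these receptors, 0 rose and 0 fell (median log2 fold change 0.12, against 0.01 over all genes). Map1lc3b, which encodes the LC3B protein that both receptors bind on the autophagosome, stood at 150 ± 21.6 CPM in KO and 109 ± 4.84 in WT (edgeR adjusted p = 0.0821). Gabarap, of the same protein family, was at 201.5 ± 19.4 and 160.5 ± 6.08 CPM (adjusted p = 0.0959). Both were higher in every KO library than in any WT library, as were 3 of the 14 tested partners and 13.6% of all genes. KO2 was the lowest KO library for both, at 126 and 184 CPM. Over the 16 alternatives the log2 fold change was 0.27 to 0.56 for Map1lc3b and 0.20 to 0.38 for Gabarap. They passed the threshold in 2 and 1 of these alternatives.

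P4ha1 encodes the catalytic alpha subunit of collagen prolyl 4-hydroxylase, which works in the endoplasmic reticulum. It was at 11.2, 14.7 and 11.1 CPM in KO1 to KO3 and at 26.7, 22.0 and 18.4 CPM in WT1 to WT3. All KO libraries were below all WT libraries, with KO2 nearest to WT. On the log2 scale P4ha1 differed by −0.86 ± 0.20 (edgeR adjusted p = 0.066; 95% interval −1.34 to −0.39). It lay between −1.01 and −0.74 without 1 library and was −0.56 with the erythroid covariate (adjusted p = 0.252). P4ha1 was nearly the only alpha subunit present, with 95.5% ± 3.53 of alpha subunit transcripts per length in KO and 98.2% ± 1.22 in WT.

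P4hb, the beta subunit of the same enzyme and also the general protein disulfide isomerase, fell by 26.8%, from 1006 ± 51.5 CPM in WT to 736 ± 46.2 in KO (log2 fold change −0.45 ± 0.08, edgeR adjusted p = 0.0318). Of 9 tested collagen hydroxylase genes other than P4ha1 it was the only one past the test, against 3.56% of all tested genes. Plod3, a lysyl hydroxylase named after its value was seen, stood at 42.6 ± 5.19 against 63.1 ± 5.36 CPM (adjusted p = 0.0586). The P4hb call was lost in 5 of the 6 fits without 1 library, at adjusted p-values up to 0.117 (without WT3). Of 10 stromal and endothelial markers, Col3a1, Pdgfra, Cdh5 and Dcn had no count in any library, and Col1a1 had counts in WT3 only. Others of that list were present: Col1a2 at 93.0 to 243 CPM, Pecam1 at 4.24 to 20.1 CPM, and Tek at 6.38 to 18.7 CPM in KO against 0.927 to 3.67 CPM in WT. Pecam1 went the other way and was below WT in all KO libraries. Per kilobase of exon it was at 0.681 to 1.06 CPM in KO and 1.59 to 3.22 in WT. The list summed to 148 to 199 CPM in KO and 121 to 254 CPM in WT, 0 of its 4 tested genes passed the edgeR test, and its part in these results was not tested.

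Kdm3a encodes a histone demethylase that removes methyl groups from lysine 9 of histone H3 and is itself a HIF target. It was at 49.7, 49.2 and 51.7 CPM in KO1 to KO3 and at 46.1, 37.4 and 47.2 CPM in WT1 to WT3. The groups did not overlap, but KO2 and WT3 were close. Kdm3a had a log2 fold change of 0.20 ± 0.12 (edgeR adjusted p = 0.365; 95% interval −0.07 to 0.48). Within the KDM3 family, Kdm3a held 45.4% ± 1.40 of transcripts per length in KO and 44.9% ± 1.94 in WT. None of 5 tested KDM3 and KDM4 relatives passed the test, and Jmjd1c and Kdm4a, the 2 with the smallest p, had log2 fold changes of 0.23 and 0.24.

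Ndrg1, a stress-responsive gene linked to differentiation, was the second most abundant of the 10. It was at 100.2, 99.9 and 102 CPM in KO1 to KO3 and at 117, 79.5 and 112 CPM in WT1 to WT3. The KO libraries were nearly equal and lay inside the WT range. The log2 fold change was −0.03 ± 0.15 (edgeR adjusted p = 0.932), and its 95% interval from −0.38 to 0.32 leaves room for changes of about that size. Its relative Ndrg2, by contrast, was at 24.1, 46.7 and 24.6 CPM in KO and 67.6, 60.5 and 64.3 CPM in WT (adjusted p = 0.083). Without KO2 the Ndrg2 difference passed the test, with a log2 fold change of −1.41 and an adjusted p of 0.00725. Ndrg3 was at 153 ± 5.56 and 182 ± 9.06 CPM (adjusted p = 0.114).

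Ankrd37, a small ankyrin repeat gene often used as a hypoxia marker, was at 2.61, 1.83 and 3.22 CPM in KO1 to KO3 and at 3.53, 5.29 and 3.93 CPM in WT1 to WT3. The groups did not overlap, although KO3 and WT1 were close. The log2 fold change was −0.73 ± 0.33 (edgeR adjusted p = 0.252; 95% interval −1.51 to 0.05). An exon of Ankrd37 overlaps one of Ufsp2 on the opposite strand in the mouse annotation, and these libraries do not mark strand. Ufsp2, named after its value was seen, was far more abundant and fell by 25.4%, from 81.7 ± 3.50 CPM in WT to 61.0 ± 1.70 in KO (edgeR adjusted p = 0.043). That call was lost in each of the 6 fits without 1 library (adjusted p 0.0598 to 0.156). How reads of such overlaps were counted is unknown here, so the Ankrd37 value is uncertain. Exons of Hif1a, Bnip3 and Ndrg1 also overlap those of other annotated genes, and the same limit applies to them.

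**Figure D4:**
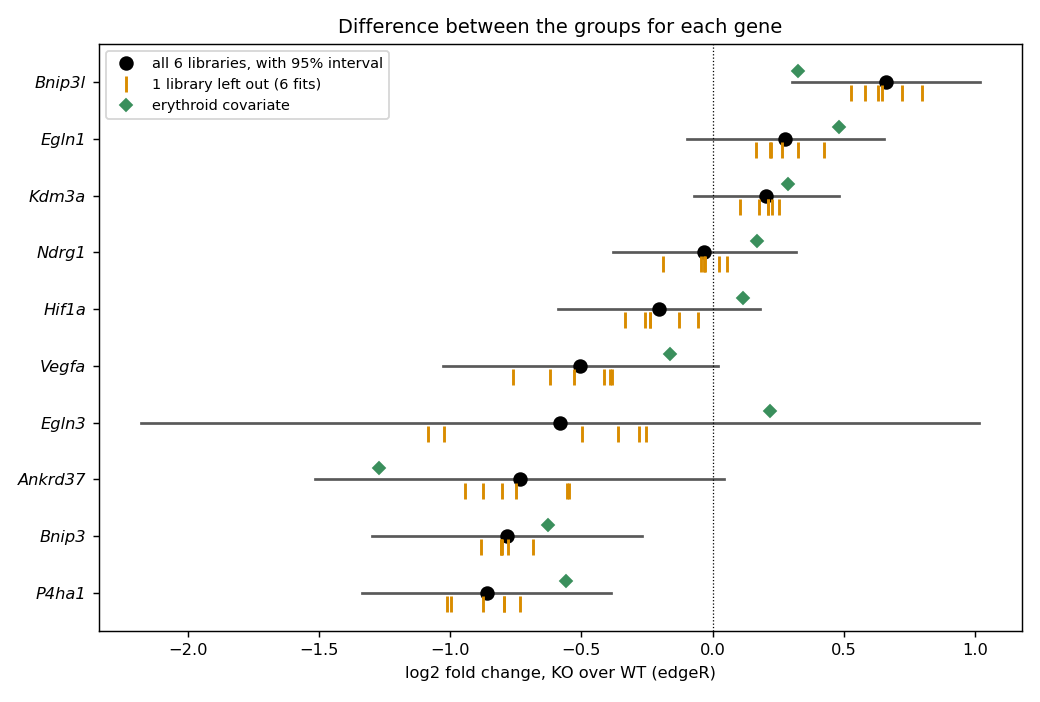
Log2 fold change, KO over WT, of the 10 genes (x axis; 0 marks equal levels) from edgeR: black points with lines are the estimate and its 95% interval from all 6 libraries, orange ticks the 6 fits without 1 library, green diamonds the fit with the erythroid covariate. The intervals of Bnip3l, Bnip3 and P4ha1 lie on 1 side of 0, and no tick or diamond of these 3 crosses it.

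Levels of different genes were compared per kilobase of annotated exon. In the WT libraries Bnip3l was highest, with 28.7 ± 2.47 CPM per kilobase, and did not overlap with the next gene, Ndrg1 (15.6 ± 3.10). Hif1a (11.7 ± 2.42), Egln1 (8.92 ± 1.74), Vegfa (7.48 ± 1.24), P4ha1 (5.43 ± 1.01) and Kdm3a (5.30 ± 0.654) followed. From Ndrg1 to Kdm3a each gene overlapped with its neighbour in this order. Bnip3 (3.52 ± 0.113) lay below Kdm3a without overlap and overlapped with Ankrd37 (2.76 ± 0.599). Egln3 (0.742 ± 0.460) was below all others. In the KO libraries P4ha1 was at 2.99 ± 0.496 CPM per kilobase and Kdm3a at 6.10 ± 0.160, and these no longer overlapped.

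Around the 10 genes stands the machinery that sets HIF activity. Of its 19 tested genes, 1 fell and 0 rose (median log2 fold change 0.07), against 1.92% and 1.64% of all tested genes. The gene that fell was Cited2, a HIF target whose protein competes with HIF-1 alpha for the coactivators CBP and EP300. It fell from 383 ± 45.0 CPM in WT to 212 ± 27.8 in KO (log2 fold change −0.85 ± 0.13, edgeR adjusted p = 0.0249). Its call was lost without KO1, KO3, WT1 or WT3, at adjusted p-values up to 0.105. Arnt, the partner of HIF-1 alpha, was at 63.4 ± 5.41 against 49.4 ± 5.42 CPM (adjusted p = 0.14). Hif1an, which blocks coactivator binding, and Vhl had log2 fold changes of 0.18 and 0.14, with adjusted p-values of 0.311 and 0.549. Arnt, Hif1an and Vhl were named after their values were seen. Epas1, which encodes HIF-2 alpha, had at most 7 counts in a library.

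Of 33 tested HIF targets outside glycolysis and the 10 genes, 2 fell and 0 rose (median log2 fold change −0.04). Among all tested genes the shares were 1.92% and 1.64%. Ero1a encodes the oxidase that recharges protein disulfide isomerase in the endoplasmic reticulum. It fell by 44.7%, from 113 ± 16.9 CPM in WT to 62.3 ± 1.63 in KO (log2 fold change −0.86 ± 0.12, edgeR adjusted p = 0.0204). Car12, a carbonic anhydrase of the cell surface, fell by 46.0%, from 30.6 ± 2.12 to 16.5 ± 2.14 CPM (−0.89 ± 0.15, adjusted p = 0.0294). Without 1 library the Ero1a call was lost 3 times (without KO1, KO3 or WT3, adjusted p up to 0.0749) and the Car12 call 5 times (up to 0.116). Car9, a closely related hypoxia marker chosen after its value was seen, was at 9.28 ± 1.41 and 9.51 ± 2.49 CPM (adjusted p = 0.957).

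Of 21 tested glycolytic HIF targets, 8 fell and 0 rose, and the list's median was −0.42 on the log2 scale. Over all tested genes 1.92% fell and 1.64% rose. Eno1, an enolase, fell from 814 ± 71.7 CPM in WT to 412 ± 26.6 in KO (edgeR adjusted p = 0.00675), and Pgam1, a phosphoglycerate mutase, from 105 ± 7.90 to 51.3 ± 4.74 CPM (adjusted p = 0.00963). Among the fits without 1 library, each lost its call only without WT3 (adjusted p 0.0566 and 0.0536). Slc2a1, the glucose transporter GLUT1 and named after its value was seen, was at 23.8, 23.8 and 21.8 CPM in KO and at 46.0, 32.4 and 40.5 CPM in WT (edgeR adjusted p = 0.0438), a call that held in 1 of the 6 fits without 1 library (adjusted p up to 0.148). Over all lists around the pathway, 12 of 104 tested genes fell and 0 rose, and without the glycolytic list 4 of 83 fell. Whether the glycolytic and the other targets differ from each other was not tested. The number of list genes called lower in KO, 12 with all libraries, was counted again in each fit. It was 0 without WT3, 2 without KO1, 3 without KO3, 4 without WT1 and 5 without WT2, and it rose without KO2. With the erythroid covariate it was 3.

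**Figure D5:**
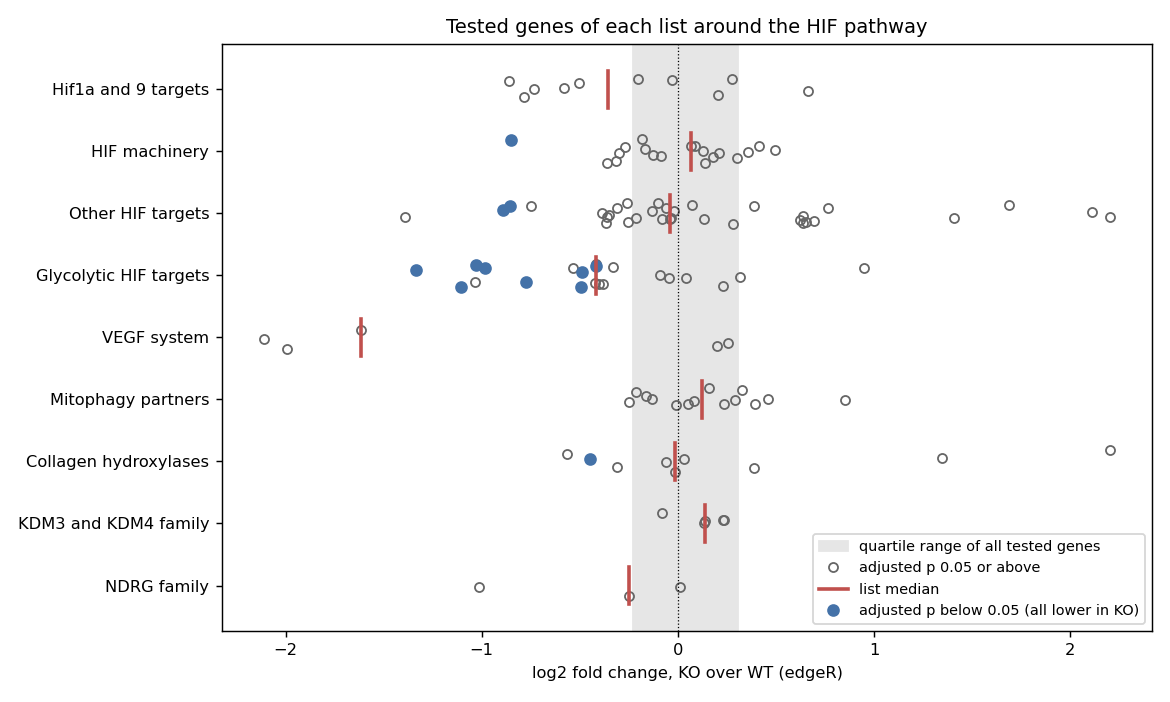
Log2 fold change, KO over WT (x axis), of every tested gene in the 9 lists (y axis; points are spread vertically for legibility); filled blue points have an edgeR adjusted p below 0.05, the red line is the list median and the grey band spans the quartiles of all tested genes. No gene of the 10 is filled, and all 12 genes that are filled lie to the left of 0, of which 8 are glycolytic.

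Markers of other blood cells differed between the groups in several lists. For comparison, the edgeR test called 1.64% of all tested genes higher in KO and 1.92% lower. T and NK cell markers had the most calls, with 5 of 9 tested genes higher in KO and a median log2 fold change of 4.38. Their levels were low apart from Nkg7: Cd3e was at 1.002 to 2.88 CPM in KO and 0 to 0.0792 CPM in WT, and Cd4 was at 1.35 to 2.11 CPM in KO with 0 counts in WT. Nkg7, at 690 to 1033 CPM, made up most of the sum, which was 727 to 1042 CPM in KO and 691 to 840 CPM in WT. Macrophage markers summed to 131 to 212 CPM in KO and 38.3 to 59.4 CPM in WT, with 3 of 12 genes higher in the edgeR test. B cell markers summed to 56.7 to 154 CPM against 5.51 to 39.7 CPM, with 2 of 6 tested genes higher. Megakaryocyte markers had 1 higher and 1 lower call among 10 tested genes, with sums of 662 to 999 CPM in KO and 977 to 1683 CPM in WT. Mast cell and basophil markers also had 1 of each among 10, with sums of 616 to 889 and 641 to 887 CPM. Of 14 tested neutrophil markers 0 passed the test and 3 were below WT in all KO libraries, as were 14.4% of all genes. Their sums overlapped, at 25.2 to 241 CPM in KO and at 883, 170 and 131 CPM in WT1, WT2 and WT3. Their part in the levels of the 10 genes was not tested.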

How the data were processed

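RNA of sorted mouse leukaemia cells was measured in 6 libraries, 3 per group. Per the labels' protocols, cDNA was made from total RNA with a SMARTer Ultra Low kit, tagmented with Nextera XT and read single-end. This chemistry marks no strand and carries no molecular identifiers, so amplified copies count as reads. The authors deposited whole-number counts per gene. The submitters' processing notes list STAR 2.7.9a, fastp 0.23.1, featureCounts and Subread 2.0.1. Genome build, annotation, parameters and the treatment of multi-mapping reads were not given in the sources used here.

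Counts were filtered with filterByExpr (minimum count 10, minimum total 15), scaled by TMM and tested with the quasi-likelihood F test of edgeR 4.0.16 in R 4.3.3, with robust dispersions, no covariate and Benjamini-Hochberg adjustment over 15232 genes. The standard error is the log2 fold change divided by the square root of F, and 95% intervals are unadjusted. DESeq2 1.42.0 and limma 3.58.1 (voom) were alternatives. The code was tested on simulated data. The chi-square per degree of freedom between libraries of a group was at least 36.4, so no library was a copy of another. Exon lengths and overlaps came from GENCODE M21, and promoters from RefSeq.

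Genes named were Slc6a6, the 10 genes, and from each list up to 4 genes past the test with a mean of at least 1 CPM, or the 2 with the smallest p. Any other gene, including Egln2, Epas1, Flt1, Kdr, Flt4 and all named markers, was picked with its value in view. The genes and lists were chosen with earlier results of these data known.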

Additional observations from a re-analysis of the deposited data

How the results depend on the processing

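Of the 10 genes, 0 were higher and 0 lower in 14 of 16 alternatives. The exceptions were DESeq2, with 1 higher and 2 lower, and the fit without KO2, with 1 higher; over the fits without 1 library the number higher ranged from 0 to 1. The log2 fold changes of Bnip3, Bnip3l, P4ha1, Vegfa, Ankrd37, Egln1 and Kdm3a kept their sign in all 16. With the erythroid covariate Hif1a was at 0.11, Egln3 at 0.22 and Ndrg1 at 0.17, and Ndrg1 was also at 0.053 without WT1 and 0.024 without WT3 (range without 1 library −0.19 to 0.053). In the gene lists around the pathway (0 higher, 12 lower), 2 were higher with no low-count filter and with at least 1 CPM in 3 libraries, DESeq2 called 5 higher and 22 lower, and the erythroid covariate gave 1 and 3. Without 1 library the lists gave 0 to 1 higher and 0 to 18 lower. Over all genes (250 higher, 293 lower), DESeq2 called 1075 and 920, the erythroid covariate 115 and 80, and fits without 1 library 13 (without WT3) to 371 (without KO2) higher and 29 to 247 lower. The cause of these differences was not tested.

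The labels do not say whether replicate numbers pair the libraries. Across genes, deviations of same-numbered libraries from their group means correlated at 0.06, −0.14 and −0.07. KO1 correlated best with its own number, and KO2 and KO3 with another. With 3 libraries per group these correlations are tied to each other and cannot settle whether the numbers pair. With the replicate block, 8 genes were higher and 20 lower (0.184% of all genes), 0 of the 10 genes and 1 lower gene of the lists passed, and the log2 ratio of Bnip3 to Bnip3l differed by −1.44 (exact p = 0.25, the smallest that 3 pairs allow). The log2 ratio of Egln3 to Egln1 differed by −0.71 with and without the block, and by −1.41 to −0.27 without 1 library. Depth limits Egln3 most, with 27 to 142 counts per library.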

Other observations

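Several further HIF target genes, chosen after their values were seen, add to the account. Plod1, a lysyl hydroxylase of collagen, was at 12.8, 14.0 and 6.37 CPM in KO1 to KO3 and at 3.88, 1.24 and 2.08 CPM in WT1 to WT3. It thus stood opposite to P4ha1, above WT in 3 of 3 KO libraries, with a log2 fold change of 2.20 ± 0.50 that did not pass the test (edgeR adjusted p = 0.0611). Trf, which encodes the iron carrier transferrin, was at 24.4, 10.3 and 9.04 CPM in KO and 3.63, 2.34 and 4.16 CPM in WT (edgeR adjusted p = 0.0541). Epo, the hormone of red cell production and a HIF-2 target, had 0 counts in every library, as did Lox and Ppp1r3c. A count of 0 allows up to 3 counts, or 0.0594 to 0.0727 CPM in these libraries, which covers counting error only. Adm, a widely used hypoxia marker, had a single count, in KO1.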
